A study of Mus musculus with 6 samples.

Results

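Il34, Csf1 and Csf1r are the 2 ligand genes and the receptor gene of the colony-stimulating factor 1 receptor system, taken here by symbol as 3 of the 31053 genes counted. They were followed through single-nucleus RNA sequencing of mouse kidney cortex, with the question of which nuclei hold the ligands' transcripts and which hold the receptor's. All mice were FVB/N and homozygous for a floxed Klf4 allele. The 3 control libraries came from Klf4 fl/fl mice, and the 3 knockout libraries from Podocin-Cre Klf4 fl/fl mice, in which a podocyte promoter drives Cre in podocytes, the filtering cells of the glomerulus. Because both groups carry the floxed allele and no group carries Cre alone, an effect of Cre itself and the loss of Klf4 cannot be told apart. The labels give no age, sex, litter or day, and do not say that each library is 1 animal, so p-values measure only the spread between these libraries.

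Csf1r is a receptor tyrosine kinase on which macrophages and their precursors depend for survival and growth. It has 2 ligands that share little sequence. Csf1 is made as secreted and membrane-bound forms by stromal, endothelial and epithelial cells, and Il34 is best known from neurons and keratinocytes. In the injured kidney, tubule epithelium is a known source of both ligands, and resident and recruited macrophages are the known bearers of the receptor.

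On build GRCm38 (mm10), Il34 (ENSMUSG00000031750) lies on chromosome 8, from 110741829 to 110805924 on the minus strand. Csf1 (ENSMUSG00000014599) lies on chromosome 3, from 107741048 to 107760469 on the minus strand. Csf1r (ENSMUSG00000024621) lies on chromosome 18, from 61100598 to 61132149 on the plus strand. Whole genes were counted, and the use of strand in counting is not given in the sources used here. Gm15894 and Gm15895, antisense genes that overlap Il34, gave 58 and 744 UMIs (unique molecular identifiers, 1 per captured transcript) against 36470 of Il34. Hmgxb3 overlaps the 3′ end of Csf1r on the other strand, and its level is given beside that of Csf1r below. No annotated gene overlaps Csf1.

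Of the 3 genes, only Csf1 matched an entry of the RefSeq promoter table (GRCm38.p6). Its 250 bases before the start site (chr3:107760470-107760719, minus strand) are shown for that reason, and the promoters of Il34 and Csf1r were not examined. Capitals mark a complete match, on the opposite strand, to the 10-letter NF-kB site, the motif bound by a factor of inflammatory signalling. The match begins 154 bases before the start.

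Csf1 promoter: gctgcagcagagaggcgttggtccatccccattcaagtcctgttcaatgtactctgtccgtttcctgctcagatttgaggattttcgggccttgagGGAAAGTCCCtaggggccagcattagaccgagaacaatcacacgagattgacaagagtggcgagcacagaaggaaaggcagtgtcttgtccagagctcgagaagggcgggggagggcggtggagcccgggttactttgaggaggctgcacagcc

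The NF-kB site was present, on either strand, in 46 of 32851 promoters of the same length, or 0.14%. The Sp1 box GGGCGG occurred at 2 places in Csf1 and in 32.7% of promoters. No match in this window was found for TGANTCA (AP-1), CACCC (the KLF box), CACGTG (E-box), TATAAA or GGAAGT (ETS), which 6.75%, 52.0%, 6.02%, 12.4% and 19.7% of promoters held. A match is a description of letters, and binding was not measured.

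After filtering, 54429 nuclei were kept, between 3742 and 18208 per library. Libraries numbered 1 stood apart in both groups, with 21957 and 22080 barcodes against 3919 to 6079 in the other 4, and with 1.02% to 2.67% mitochondrial UMIs per nucleus (median) against 0.087% to 0.163%. Median depth per kept nucleus was 1093 to 2029 UMIs. Pairs of libraries shared 5 to 132 cell barcodes, at most 1.39% of the smaller library. Klf4 gave 1 UMI in all control podocyte nuclei and 6 in all knockout podocyte nuclei, too few to check the genotype labels, and the labels do not give the part of Klf4 that Cre removes. Klf4 deletion was thus taken from the labels alone. Nuclei were grouped into 15 cell classes named by marker genes, with the 3 members left out of the genes used to form the groups.

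Il34, the first ligand, was detected in every class and had the highest level in injured tubule nuclei, a class marked by genes such as Havcr1 and Vcam1. Over all nuclei, summed Il34 in the control libraries was 156.7, 154.8 and 316.3 CPM (UMIs of a gene per 1000000 UMIs of the same sum). In the knockout libraries it was 391.4, 393.0 and 578.9 CPM. Each knockout library was above each control library, and the lowest knockout exceeded the highest control by less than the range within the controls. Of all genes of at least 10 CPM, 11.7% were higher in every knockout library in the same way. In edgeR's quasi-likelihood fit over 16157 genes the log2 fold change was 1.06 ± 0.31 (SE), with a Benjamini-Hochberg adjusted p of 0.265. That fit called 0.173% of genes, and none of the 3 members was among them. With the replicate number as a block, edgeR gave 1.12 and an adjusted p of 0.0287, and called 1.83% of genes. DESeq2 gave an adjusted p of 0.0274 and called 3.11%. Without both libraries numbered 1 the log2 fold change was 1.03 (edgeR, adjusted p = 0.146). In sums over all nuclei, fewer cells of a type and less RNA per cell cannot be told apart.

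**Figure D1:**
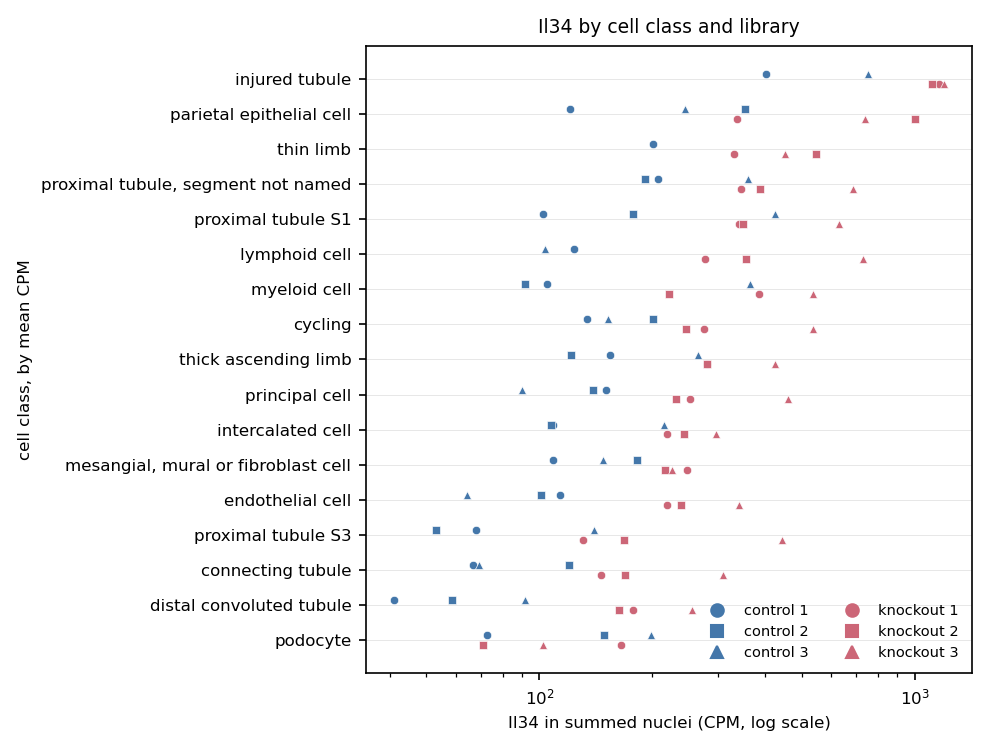
Il34 in each cell class and library, in CPM on a log axis, with classes ordered by their mean over libraries. Blue points are control and red points are knockout libraries, 1 point per library with at least 10 nuclei of the class. Injured tubule has the highest points, 1110 to 1201 CPM in the knockout libraries, and in podocytes the 2 groups overlap.

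Within classes Il34 was mostly higher in the knockouts, but no single class passed. Of 17 groups of nuclei that could be tested (the whole proximal tubule and its 3 subdivisions counted separately), 16 had a higher mean Il34 CPM in the knockouts, all but podocytes. The fitted log2 fold changes ran from 0.07 in podocytes to 1.81 in lymphoid nuclei, with a median of 1.10. None passed in edgeR without a block, where the lowest adjusted p was 0.150 and between 0% and 0.79% of genes were called per class. With the replicate block, 6 of the 17 passed. These were distal convoluted tubule (adjusted p = 0.00887 in edgeR with the block), endothelial (0.0101), parietal epithelial (0.0167), injured tubule (0.0286), lymphoid (0.0349) and proximal tubule S3 nuclei (0.0497). The same fits called 0.494%, 1.41%, 6.55%, 3.03%, 1.45% and 0.258% of the genes of those classes. In injured tubule and lymphoid nuclei, control library 2 had too few nuclei, at 6 and 8. Knockout library 2 was thus alone in its block there, and the 2 calls rest on the pairs numbered 1 and 3. In 10 of the 17, every knockout library lay above every control library, which between 4.83% and 17.6% of genes of at least 10 CPM also did. The classes share their 6 libraries and are not independent of each other.

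Injured tubule nuclei were rare in controls, at 99, 6 and 20 nuclei, and numerous in knockouts, at 1637, 379 and 231. Their share of all nuclei was 0.384% ± 0.217 (SD, n = 3) in controls and 6.89% ± 2.63 in knockouts (exact two-sided permutation p = 0.1, the smallest that 3 against 3 allows). Il34 in them was 402.3 and 750.1 CPM in control libraries 1 and 3, while control library 2 had too few nuclei. In the knockout libraries it was 1160, 1110 and 1201 CPM. All 3 knockout libraries were above both controls, and they differed little from each other. The log2 fold change was 1.10 ± 0.29 (SE, edgeR, adjusted p = 0.150), beside 0.0905% of genes called. In this class 17.6% of genes were higher in every knockout library. Different clusters made up the class in the 2 groups, with 109 of 125 control nuclei in a cluster led by Kcnip4 and Dock10. In that cluster alone Il34 was 367.5 and 716.9 CPM in controls 1 and 3 and 833.4, 926.7 and 939.5 CPM in the knockouts.

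Compared with the proximal tubule of the same library, Il34 was higher in injured tubule nuclei in 5 of 5 libraries, by 558 ± 251 CPM (SD of the difference). The exact sign-flip test over libraries gave p = 0.0625, the smallest that 5 libraries allow, and an adjusted p of 1 over 50 pairs of classes. An edgeR fit with the library as a block gave a log2 ratio of 1.31 ± 0.12 (SE, adjusted p = 5.96e-16), beside 26% of 11625 genes called. Against thick ascending limb the ratio was 1.63 ± 0.15 (edgeR, adjusted p = 1.01e-08), beside 39.9% of genes called. The injured class was formed from other genes of these same nuclei, so both values compare groups that the data themselves define.

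The other injured clusters had higher Il34 still. In the knockout libraries a cluster led by Cd44 and Havcr1, the latter encoding the kidney injury molecule KIM-1, had 1614, 1911 and 1489 CPM. A cluster led by Cxcl10, Gbp5 and C3, a chemokine, an interferon-induced GTPase and a complement component, had 1382, 1788 and 1883 CPM. A cluster led by Cd44, Kcnh8 and Kcnip4 met the score for injured tubule, with 7 of its markers raised, but stayed unnamed because its 10 leading genes held a thin limb marker (Fst) and none of injured tubule. Its 738 nuclei are thus outside the injured counts above. It had 1037, 1353 and 1395 CPM, and 1154 CPM in 15 nuclei of control library 1. These 3 clusters held 6, 10 and 20 control nuclei in all, so their level in controls was hardly measured.

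**Figure D2:**
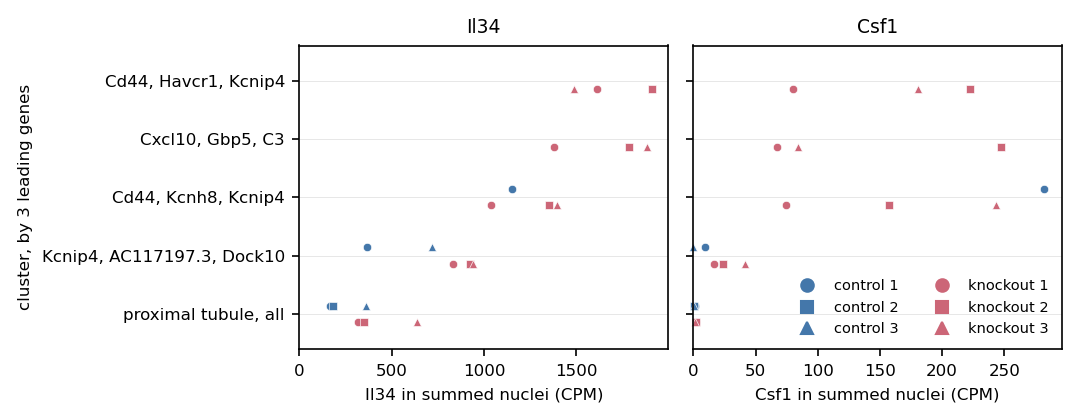
Il34 (left) and Csf1 (right) in the 3 injured tubule clusters, in the unnamed Cd44, Kcnh8 and Kcnip4 cluster and in all proximal tubule nuclei, in CPM on linear axes. Points are libraries with at least 10 nuclei of the cluster, blue for control and red for knockout. Both ligands are higher in the Cd44-led and Cxcl10-led clusters than in proximal tubule.

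Within the proximal tubule, Il34 was higher in S1 than in S3, and no cluster was named S2. In S1, the first stretch of the proximal tubule, it was 102.1, 177.4 and 424.6 CPM in controls and 339.5, 348.7 and 628.2 CPM in knockouts. In S3, the last stretch, it was 67.7, 53.0 and 140.1 CPM in controls and 131.0, 168.1 and 444.1 CPM in knockouts. S3 was below S1 in each of the 6 libraries, and in both segments the groups overlapped. The log2 ratio of S3 to S1 was -1.02 ± 0.15 (SE, edgeR with the library as a block, adjusted p = 2.35e-05), beside 39.2% of 7240 genes called. Knockout against control in S3 gave 1.51 ± 0.49 without the block (edgeR, adjusted p = 0.565), beside 0.0679% of genes called. Proximal tubule nuclei of no named segment had 208, 192 and 359 CPM of Il34 in controls and 345, 386 and 684 CPM in knockouts. Thin limb nuclei had 201 CPM in control library 1 and 331, 547 and 451 CPM in knockouts. Control libraries 2 and 3 had too few thin limb nuclei.

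Thick ascending limb, the salt-reabsorbing segment, had 154.5, 121.1 and 265.5 CPM of Il34 in controls and 279.4, 279.1 and 424 CPM in knockouts, with no overlap, as 4.83% of genes were higher in every knockout there. Proximal tubule as a whole was higher than thick ascending limb by a log2 ratio of 0.43 ± 0.10 (edgeR with library block, adjusted p = 0.00246), beside 46.3% of genes called. Distal convoluted tubule had 40.9, 58.6 and 91.7 CPM in controls and 177.2, 162.7 and 254.4 CPM in knockouts, again with no overlap, beside 6.88% of genes. Podocytes, the cells in which Cre acts, had 72.5, 148.3 and 198.4 CPM in controls and 164.5, 70.7 and 102.0 CPM in knockouts. The groups overlapped in podocytes. Their means were 139.8 ± 63.4 CPM in controls and 112.4 ± 47.8 CPM in knockouts (SD, n = 3), while the fitted log2 fold change, on TMM-scaled counts, had the other sign, at 0.07 ± 0.44, and was -0.89 without both libraries numbered 1.

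Free RNA of lysed cells can reach every droplet, so Il34 was also set against 9 proximal tubule markers. Per 1000 marker UMIs, Il34 averaged 20.0 in proximal tubule and 19.7 to 28.7 in distal convoluted, connecting, principal, intercalated, endothelial, mesangial, lymphoid, myeloid and cycling nuclei. In these classes the ratio was near that of the proximal tubule itself, and the part of free RNA in their Il34 was not tested. The ratio was above it in injured tubule, at 104, parietal epithelium, at 85.4, thick ascending limb, at 59.5, thin limb, at 43.2, and podocytes, at 34.0. In S3 it was 12.2, below S1 at 20.5. In proximal tubule the ratio was 10.3, 13 and 20.3 in controls and 22.9, 22.8 and 30.6 in knockouts, and in distal convoluted tubule it was 7.7, 7.9 and 19.8 and then 26.2, 20.7 and 36.2. In both classes each knockout ratio was above each control ratio, but narrowly. The nearest values were 22.8 and 20.3 in proximal tubule and 20.7 and 19.8 in distal convoluted tubule. The share of all genes that do so by this ratio was not counted. In CPM, Il34 in proximal tubule overlapped between the groups, at 362 in control library 3 and 319 in knockout library 1.

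The share of nuclei with an Il34 UMI was also highest in injured tubule. After thinning each nucleus to 500 UMIs, which left out none, 39.9% of injured tubule nuclei had one (95% exact binomial interval 37.9% to 41.9%; unthinned 68.6%, median depth 1509 UMIs). The share was 11.2% in S1, 11.3% in thick ascending limb and 6.0% in S3. It was 5.41% in endothelial nuclei and 4.84% in distal convoluted tubule, with unthinned shares of 14.3% and 14.9% and median depths of 992 and 1334 UMIs. Intervals here cover counting error only.

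Where a library's Il34 UMIs lay also differed between the groups. Proximal tubule nuclei of no named segment held 44.6% ± 9.38 (SD, n = 3) of them in controls and 29.3% ± 1.76 in knockouts. Their mean share of all UMIs also differed, at 36.4% and 29.2%. Injured tubule nuclei held 1.25%, 0.33% and 0.88% in controls and 25.6%, 18.9% and 7.27% in knockouts, from 6.28% of all knockout UMIs on average. The 2 groups did not overlap in either share (exact permutation p = 0.1, the smallest possible). Mixed and unnamed clusters together took a further part, shown in the plot of ligand UMIs by class.

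**Figure D3:**
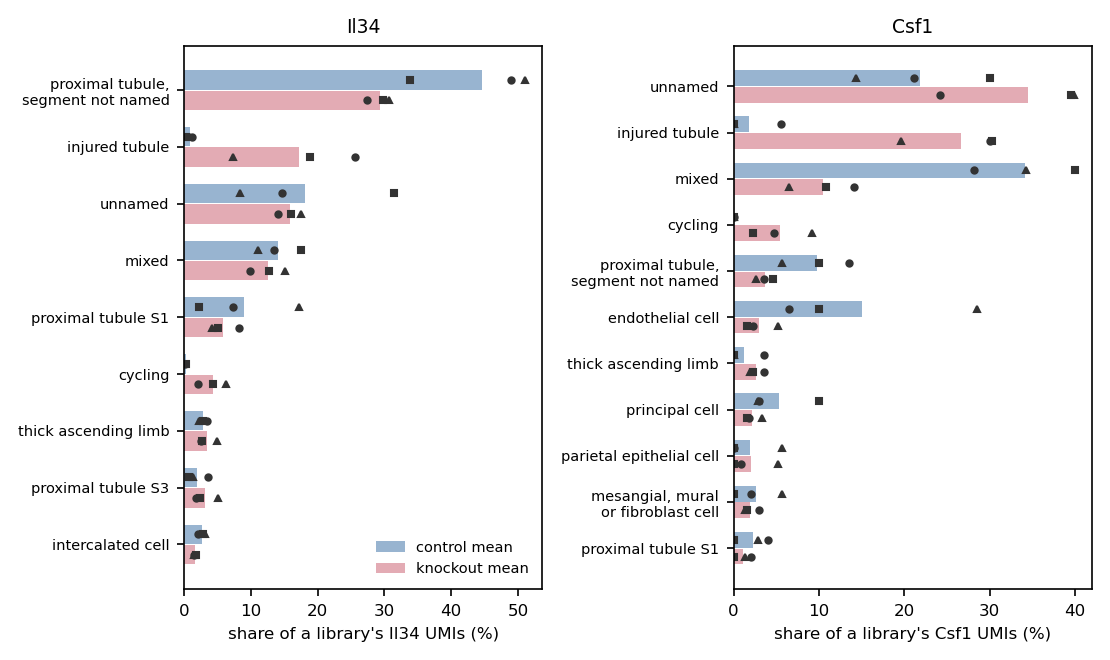
Share of each library's Il34 UMIs (left) and Csf1 UMIs (right) that lie in each cell class, in percent. Bars are group means, blue for control and red for knockout, and black symbols are single libraries numbered 1 (circle), 2 (square) and 3 (triangle). Injured tubule holds a mean of 17.3% of Il34 and 26.6% of Csf1 in the knockouts, against 0.82% and 1.84% in the controls. Its mean share of all UMIs is 6.28% in the knockouts and 0.306% in the controls.

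Csf1, the second ligand, was counted far less deeply, with 972 UMIs in all kept nuclei, 244 in controls and 728 in knockouts. Over all nuclei it was 4.09, 1.29 and 3.04 CPM in controls and 12.6, 14.8 and 13.2 CPM in knockouts. The knockout libraries lay close together and above every control library, as did 10.9% of genes of at least 1 CPM. The log2 fold change was 2.13 ± 0.41 (SE), with an edgeR adjusted p of 0.119. With the replicate block it was 2.17 and passed narrowly (edgeR, adjusted p = 0.0494), and DESeq2 gave an adjusted p of 9.2e-05. Without both libraries numbered 1 it was 2.62 and passed in edgeR (adjusted p = 0.00931), beside 2.89% of genes called.

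Among named classes, mean Csf1 was highest in parietal epithelial nuclei, at 46.7 ± 63.8 CPM (SD, n = 6), injured tubule, at 46.2 CPM, and endothelial nuclei, at 30.0 CPM. It was close to 0 in healthy proximal tubule. The parietal epithelial mean rests on few counts. Controls had 0, 0 and 97.5 CPM there, from 2 UMIs, and knockouts 31.2, 0 and 151.5 CPM, from 12. Parietal epithelial nuclei exceeded injured tubule in 2 of 5 libraries. Mixed clusters held 34.1% ± 5.93 (SD, n = 3) of a library's Csf1 UMIs in controls and 10.5% ± 3.81 in knockouts, and unnamed clusters 21.8% ± 7.88 and 34.5% ± 8.94, so much of Csf1 lay in nuclei with no class. In injured tubule it was 46.6 and 0 CPM in control libraries 1 and 3, from 11 UMIs in all, and 43.8, 66.9 and 73.7 CPM in the knockouts, from 203 UMIs. The control values lay at 0 and inside the knockout range, and the log2 fold change within the class was 0.60 ± 0.58 (edgeR, adjusted p = 0.751). In the proximal tubule as a whole it was 1.53, 0.41 and 0.43 CPM in controls and 1.79, 2.20 and 1.42 CPM in knockouts. Injured tubule exceeded the proximal tubule of its library by 44.7 ± 28.3 CPM (SD of the difference), in 4 of 5 libraries (exact sign-flip p = 0.125, adjusted 1 over 50 pairs). After thinning, 2.36% of injured nuclei had a Csf1 UMI (95% exact interval 1.79% to 3.05%), against 0.12% in S1, 0.12% in S3 and 0.1% in other proximal tubule. Median depths were 1509 UMIs in injured nuclei and 1478 to 1867 in the proximal classes.

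**Figure D4:**
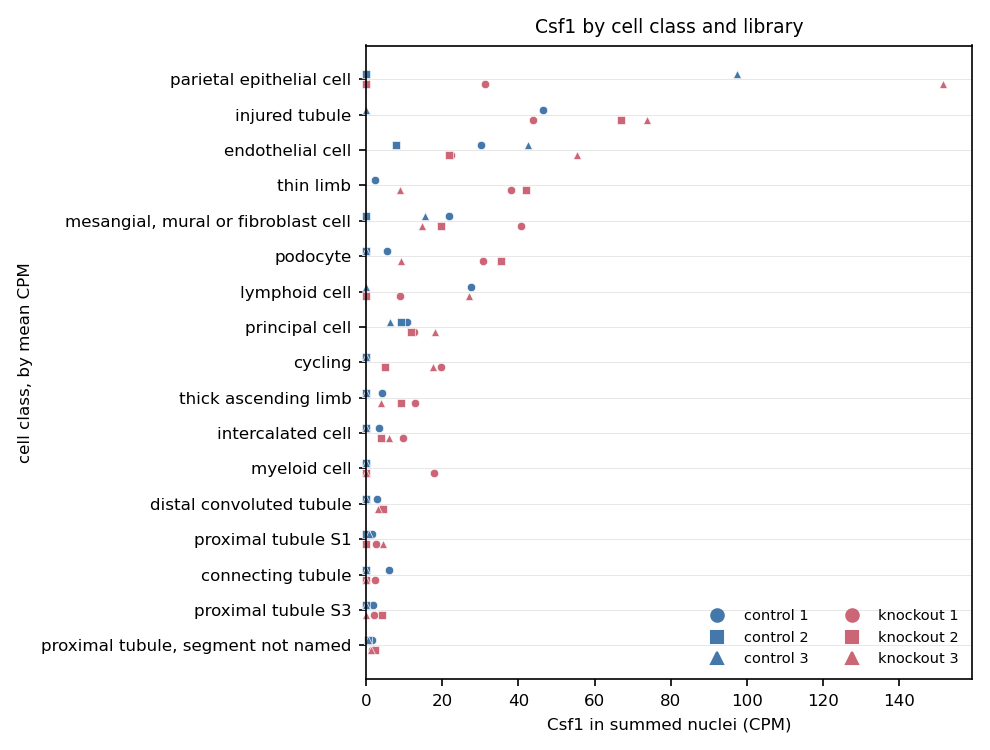
Csf1 in each cell class and library, in CPM on a linear axis, classes ordered by mean. Blue points are control and red points are knockout libraries, and points at 0 are libraries with no Csf1 UMI in that class. Proximal tubule S1, S3 and unsegmented nuclei stay below 5 CPM in all 6 libraries.

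Inside the injured nuclei Csf1 was unevenly spread. In the knockout libraries the Cd44 and Havcr1 cluster had 80.4, 222 and 181 CPM and the Cxcl10 cluster 67.1, 248 and 84.3 CPM. The unnamed Cd44, Kcnh8 and Kcnip4 cluster had 74.4, 157 and 244 CPM, and 282 CPM in 15 nuclei of control library 1. The Kcnip4 and Dock10 cluster had 16.2, 23.7 and 41.7 CPM in the knockouts, below every knockout value of the other 3 clusters. Its Il34 was also below theirs. Of 145 knockout injured nuclei with a Csf1 UMI, 111 (76.6%) also had an Il34 UMI, beside 69.9% of all knockout injured nuclei.

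Among stromal cells, endothelial nuclei had 30.2, 7.76 and 42.7 CPM of Csf1 in controls and 22.4, 21.7 and 55.5 CPM in knockouts, and the groups overlapped. Mesangial, mural or fibroblast nuclei averaged 18.7 ± 13.2 CPM (SD, n = 6). Podocytes gave 2 Csf1 UMIs in controls and 17 in knockouts, at 5.37, 0 and 0 CPM and then 30.7, 35.3 and 9.28 CPM. The podocyte groups did not overlap, beside 5.79% of genes higher in every knockout, and the counts were too low for the fit. Endothelial nuclei held 15% ± 11.9 of a library's Csf1 UMIs in controls and 3.01% ± 1.95 in knockouts (SD, n = 3), from 1.53% and 1.19% of all UMIs. The control shares rest on 13, 1 and 10 UMIs, of 199, 10 and 35 Csf1 UMIs in those libraries. Injured tubule held 1.84% ± 3.19 and 26.6% ± 6.08 (SD, n = 3), from 0.306% and 6.28% of all UMIs. The exact permutation p was 0.1 for each class, the smallest possible. The share of all UMIs in injured tubule thus rose along with its share of Csf1.

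Csf1r, the receptor, had its highest mean levels over the 6 libraries in proximal tubule S3 and myeloid nuclei. Their order differed between the groups. Csf1r averaged 119 CPM in S3 and 57.5 CPM in myeloid nuclei in controls, and 92.3 and 118 CPM in knockouts. In the myeloid class it was 73.2, 45.7 and 53.5 CPM in controls, from 13 UMIs, and 85.8, 97.1 and 171 CPM in knockouts, from 43 UMIs. In S3 it was 110, 124 and 125 CPM in controls, from 510 UMIs, and 78.6, 109 and 89.6 CPM in knockouts, from 271 UMIs. Every knockout was above every control in myeloid nuclei, and every one below in S3. Over both groups together, the log2 ratio of S3 to myeloid nuclei was 0.26 ± 0.23 (SE, edgeR with the library as a block, adjusted p = 0.462). No difference was detected in this pooled comparison, which does not show that the levels were equal in either group. That fit called 26.4% of 4579 genes. Some libraries of 2 smaller classes reached like levels. Parietal epithelial nuclei had 93.7, 29.4 and 97.5 CPM in controls, from 10 UMIs, and 15.6, 32.3 and 18.9 CPM in knockouts, from 4. Thin limb nuclei had 71.5 CPM in control library 1, from 31 UMIs, and 25.4, 0 and 62.0 CPM in knockouts, from 9.

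**Figure D5:**
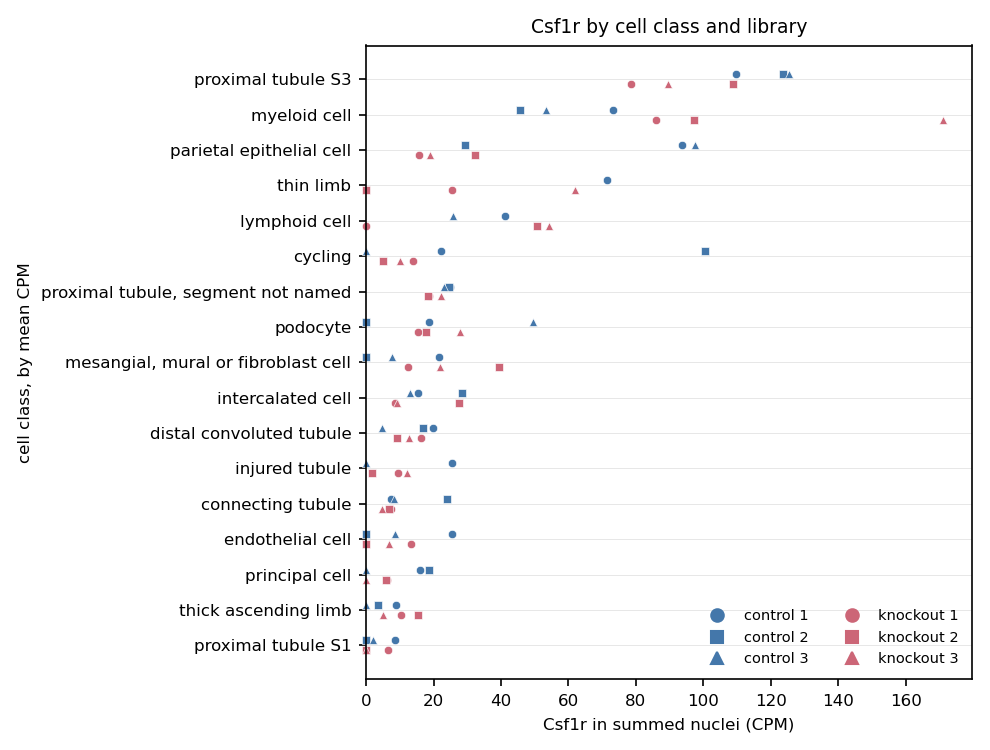
Csf1r in each cell class and library, in CPM on a linear axis, classes ordered by mean. Blue points are control and red points are knockout libraries. Proximal tubule S3 and myeloid nuclei lead, at means of 106 and 87.7 CPM, and proximal tubule S1 is lowest, at 2.85 CPM.

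The receptor's transcript separated the proximal segments sharply. In S1 it was 8.47, 0 and 2.03 CPM in controls and 6.6, 0 and 0 CPM in knockouts, all far below S3 of the same library. The log2 ratio of S3 to S1 was 4.10 ± 0.27 (edgeR with library block, adjusted p = 1.73e-09), beside 39.2% of genes called, and that of myeloid nuclei to S1 was 3.99 ± 0.41 (edgeR, adjusted p = 2.52e-11), beside 17.7%. Of the 13 proximal tubule clusters, the S3 cluster (led by Bcat1 and Cyp7b1, a steroid hydroxylase) averaged 106 ± 18.6 CPM (SD, n = 6). A cluster with the same leading genes but no segment name averaged 68.1 ± 13.2 CPM. The other 11 averaged 2.6 to 24.0 CPM. Hmgxb3, whose 3′ end overlaps that of Csf1r, was 103 ± 14.9 CPM in S3 and 60.6 ± 13.8 CPM in S1, a far smaller step than that of Csf1r.

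Macrophage markers were low in S3 nuclei with and without a Csf1r UMI, and the direction between these 2 sets differed by library. Of 4083 S3 nuclei, 688 had a Csf1r UMI, 378 of them from control library 1. Pooled over libraries, their summed 15 myeloid markers were at 58.6 CPM, against 60.4 CPM in S3 nuclei without one. By library, the markers were higher with a Csf1r UMI in control libraries 2 and 3 and knockout libraries 1 and 3. They were lower in control library 1, at 51.1 against 64.6 CPM, and in knockout library 2. The pooled order is thus not that of most libraries. Nuclei with a Csf1r UMI gave only 0 to 48 marker UMIs per library. In the myeloid class the same markers stood at 1359 and 1556 CPM in nuclei with and without a Csf1r UMI. Over the whole of S3, 2 of the 15 (Itgam and Ms4a7) were at 0 and 2 (Cd74 and Cx3cr1) exceeded 10 CPM, while 13 exceeded 10 CPM in myeloid nuclei, where Itgam was also at 0. Ptprc (CD45), the leukocyte phosphatase, was at 4.8 CPM in S3 and 332 CPM in myeloid nuclei. Adgre1 (F4/80) was at 0.8 and 61.9 CPM, and Mrc1, the mannose receptor, at 1.9 and 84.6 CPM. By library, the summed myeloid markers in S3 ranged from 26.8 to 61.5 CPM in controls and from 16.4 to 90.1 CPM in knockouts.

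The myeloid class itself carried proximal tubule RNA, with 9 proximal tubule markers at 13474 CPM on average against 16333 CPM in proximal tubule. Its 6 S3 markers summed to 2764 CPM against 9535 CPM in S3, and most of this was Atp11a, in counts pooled over libraries at 1594 CPM in myeloid nuclei and 3314 CPM in S3, while Cyp7b1 was at 263 and 3188 CPM. Csf1r per 1000 S3 marker UMIs was 11.9 in S3 (7.30 to 18.7 over libraries) and 32.2 in myeloid nuclei (19.8 to 54.7), with no overlap. It was 12.1 in lymphoid, 10.2 in intercalated, 6.58 in unsegmented proximal tubule, 5.40 in endothelial, 5.21 in injured tubule and 2.88 in S1 nuclei. Other classes were not set against S3 markers, so this ratio does not show whether myeloid nuclei stood alone. Parietal epithelial nuclei had 47.9 CPM of Csf1r on average beside 1495 CPM of S3 markers. Podocytes had 21.5 beside 913 CPM, and myeloid nuclei 87.7 beside 2764 CPM. Per 1000 proximal tubule marker UMIs, myeloid nuclei did not stand alone. Csf1r averaged 8.58 in S3, 6.64 in podocytes (0 to 15.9 over libraries) and 6.54 in myeloid nuclei (3.32 to 11.6). It averaged 6.29 in parietal epithelial nuclei (2.09 to 13.2), 4.25 in thin limb and 0.19 in S1. After thinning, 4.90% of S3 nuclei had a Csf1r UMI (95% exact interval 4.26% to 5.61%) and 4.25% of myeloid nuclei (2.28% to 7.16%), against 0.34% in S1 and 0.28% in endothelial nuclei. Unthinned, the shares were 16.9%, 16.0%, 0.99% and 1.58%, at median depths of 1759, 1619, 1478 and 992 UMIs. In parietal epithelial and thin limb nuclei the thinned shares were 3.61% and 2.99%, and the unthinned ones 7.83% and 13.7%.

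Between knockout and control, Csf1r did not pass anywhere it could be tested, which was over all nuclei and in 3 of the 17 groups of nuclei. Over all nuclei it was 29.9, 22.8 and 21.6 CPM in controls and 18.7, 21.6 and 21.9 CPM in knockouts, which overlap (log2 fold change -0.34 ± 0.20, edgeR, adjusted p = 0.671). Without both libraries numbered 1 the value was -0.03. In S3 it was -0.37 ± 0.22 (edgeR, adjusted p = 0.780), and every knockout library lay below every control library (exact permutation p = 0.1, the smallest possible), as did 6.65% of genes of at least 10 CPM in S3. In myeloid nuclei the counts were below the filter of the fit. There every knockout library lay above every control library (exact permutation p = 0.1), as did 6.77% of such genes. In injured tubule Csf1r was lower than in proximal tubule by a log2 ratio of -1.48 ± 0.26 (edgeR with library block, adjusted p = 2.11e-06), beside 26% of genes called. Proximal tubule there includes S3. The mean in injured tubule, 9.78 CPM over 5 libraries, was above that in S1, 2.85 CPM over 6.

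Proximal tubule nuclei of no named segment held the most Csf1r UMIs, at 36.1% ± 10.5 of a library in controls and 27.9% ± 2.89 in knockouts (SD, n = 3). This was near their mean share of all UMIs, 36.4% and 29.2%. S3 nuclei held 19.8% ± 9.76 of a library's Csf1r UMIs in controls and 25.9% ± 2.84 in knockouts, from 4.49% and 5.84% of all UMIs. Myeloid nuclei held 1.02% ± 0.86 and 3.62% ± 0.82 (SD, n = 3), from 0.43% and 0.71% of all UMIs. Their control and knockout shares of Csf1r did not overlap (exact permutation p = 0.1, the smallest possible). Myeloid nuclei made up 0.222%, 0.267% and 0.655% of nuclei in controls and 0.939%, 0.613% and 0.426% in knockouts. The groups overlapped, and the difference was 0.278 percentage points (exact permutation p = 0.3).

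Other genes of the pathway were read from 7 lists of 71 genes in all. None of the 71 passed in edgeR over all nuclei or in any of the 17 groups of nuclei, in 273 tests, of which 24 had an unadjusted p under 0.05. Adam17, the protease that sheds membrane-bound Csf1, was at 45.6 ± 2.6 CPM in controls and 58.4 ± 8.4 CPM in knockouts over all nuclei. Of the other myeloid growth factors and receptors, 5 of 12 could be tested over all nuclei, with a median log2 fold change of 0.09 against -0.03 for all genes. Kitl, the ligand of the stem cell factor receptor and the most abundant of them, was at 43.6 ± 4.5 and 40.1 ± 3.8 CPM.

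All 17 genes for signalling below the receptor could be tested over all nuclei, 12 of them with a positive log2 fold change and a median of 0.08. Gab2, an adaptor, was the highest of them in myeloid nuclei, at 786 ± 183 CPM (SD, n = 6), followed by the kinase Lyn, at 312 ± 82.6 CPM, and the phosphatase Inpp5d (SHIP1), at 252 ± 63.0 CPM. Among 6 transcription factors of the myeloid lineage, Runx1 was at 8.6 ± 0.7 CPM in controls and 25.3 ± 8.1 CPM in knockouts over all nuclei (log2 fold change 1.51 ± 0.25, edgeR, adjusted p = 0.0850). Runx1 is also a leading gene of the Cd44 and Havcr1 injured cluster. In myeloid nuclei it was the highest of the list, at 233 ± 66.6 CPM, ahead of Spi1 (PU.1) at 51.6 ± 30.8 CPM.

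Resident macrophage genes had a median log2 fold change of 0.19 over the 13 of 21 that could be tested over all nuclei, and infiltrating monocyte genes 0.33 over 6 of 10. Cd74, the invariant chain of antigen presentation, was the highest resident gene in myeloid nuclei, at 385 ± 93.3 CPM in controls and 205 ± 134 CPM in knockouts. Ccr2, the chemokine receptor of recruited monocytes, led the monocyte list there, at 17.7 ± 16.3 and 90.0 ± 49.4 CPM. In the myeloid class 1 resident gene and no monocyte gene had counts enough for the fit. Of the other binding partners, Tyrobp, an adaptor of microglia and macrophages, was at 5.1 ± 9.8 CPM in myeloid nuclei, and Trem2 at 0.

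The genes most like each member were ranked by the Pearson correlation of log2(mean control CPM + 1) over 17 classes, among 7245 genes that reached 50 CPM in a class. These are descriptions over classes that share libraries and free RNA. For Il34 they were Slc6a8 (r = 0.83), Snx30, Tulp3, Sema3c and Trio (0.76), of which 4 were highest in injured tubule. For Csf1 they were 2610035D17Rik (0.89), Hmbox1, Ppp4c, Tgfb2 and Il1r1 (0.815), of which 3 were highest in endothelial nuclei. For Csf1r they included Pgm3 (0.84), Gsap, Cyp51 and Slc6a18 (0.80), each highest in S3, the last a neutral amino acid transporter of the proximal tubule.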

How the data were processed

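Nuclei of kidney cortex were profiled on the 10x Chromium system in 3 control and 3 knockout libraries. The authors deposited raw UMI counts per gene and barcode, and the file headers name Cell Ranger 3.1.0. The submitters' processing notes give build mm10 and also name Seurat, with no role. Annotation release, aligner settings and counting of introns are not given in the sources used here. Nuclei with at least 300 genes and at most 5% mitochondrial UMIs were kept, and the nuclei with the highest doublet scores (Scrublet in scanpy 1.11.5, 0.8% per 1000 barcodes) were removed. Leiden clusters took names from marker genes where at least 3 markers were raised and the mean log2 ratio was at least 1. No name was given where markers of a different class outnumbered those of the best class among the 10 leading genes, and a cluster was called mixed where an unrelated class reached 0.5 of its score. A cluster with a proximal tubule score above -0.25 was called mixed where another cluster of its class had a lower score, except among injured and cycling clusters. The only myeloid and the only lymphoid cluster (scores -0.0876 and 0.0006) kept their names. Mixed and unnamed clusters held 15.5% of nuclei. These limits were chosen with the clusters in view, and names stand for classes like those cell types. Counts were summed per library and class (at least 10 nuclei) and compared with edgeR 4.0.16 (quasi-likelihood, TMM, low-count filter, Benjamini-Hochberg threshold 0.05). The fits were tested on simulated counts. There, without the block, 2-fold changes between the groups were recovered at 51.6% over all nuclei, 32.8% in S3 and 16.4% in injured tubule. Single values were compared by exact two-sided permutation. Equal replicate numbers were treated as pairs, since deviations from the group means correlated at 0.73, 0.41 and 0.47 over 16157 genes, although libraries 2 and 3 of unequal number correlated about as much (0.44 and 0.45). The edgeR fits between classes were added after the data were seen. The members and gene lists were chosen with earlier results of these data known. Named genes were the 3 members, list genes past the threshold or otherwise up to 3 of a list highest in myeloid nuclei (over all nuclei for growth factors), and the 5 genes most like each member, of which 1 is not reported here. Gene positions are from GENCODE M21.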

Additional observations from a re-analysis of the deposited data

Results flagged for a closer look

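Csf1r went opposite ways in 2 kinds of nuclei. It was higher in every knockout library in myeloid nuclei and lower in every one in proximal tubule S3. The log2 ratio of myeloid to S3 CPM within a library was -0.58, -1.44 and -1.23 in controls and 0.13, -0.16 and 0.93 in knockouts, a difference of 1.38. The same held for myeloid nuclei against proximal tubule nuclei of no named segment, with a difference of 1.29, and against connecting tubule, with 1.87. These pairs were picked because the 2 classes moved in opposite ways in every library, which fixes that the ratios do not overlap, so the difference was not tested. The myeloid values rest on 13 control and 43 knockout UMIs, and those of connecting tubule on 11 and 8.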

How the results depend on the processing

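Over all nuclei 28 genes passed in edgeR, none of them a member, against 502 in DESeq2, 74 with no low-count filter, 296 with the replicate block, 464 without both libraries numbered 1 and between 0 and 66 when 1 library was left out. The log2 fold change of Il34 passed with DESeq2 (1.07) and the replicate block (1.12), and that of Csf1 with DESeq2 (2.14), the block (2.17) and without both libraries numbered 1 (2.62). With 1 library left out, Il34 ranged from 0.87 to 1.46, Csf1 from 1.81 to 2.60 and Csf1r from -0.44 to -0.11. Of 21 pairs of member and class none passed in edgeR, against 2 with DESeq2, 7 with no low-count filter, 6 with the replicate block, 1 with doublets kept and 0 to 1 with 1 library left out, which was parietal epithelial Il34 (log2 1.92) without knockout library 1. The block changed no other call of a member. The 21 pairs were 17 of Il34, 3 of Csf1r and 1 of Csf1. The share of myeloid nuclei differed by 0.138 to 0.415 percentage points with 1 library left out, and no pair of classes passed the sign-flip test in any setting. In 8 cases a value that had not passed changed sign, among them podocyte Il34, at -0.89 without both libraries numbered 1. The causes were not tested. Depth limits Csf1 in every class and Csf1r in myeloid nuclei, and control values of injured tubule rest on 2 libraries.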
